A study of Mus musculus with 21 samples.

Results

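All 8 iCLIP libraries of the series, out of 21 samples in all, were compared: 4 made with an antibody against RBM10 and 4 with rabbit IgG. They were chosen by sample title and are described over protein-coding genes. Of 22380 annotated protein-coding genes, 8745 held enough crosslinks to be tested. In iCLIP, ultraviolet light ties proteins to the RNA they touch in living cells, the protein is precipitated, and the crosslinked nucleotide is read from where the copied fragment stops. A crosslink count here is the number deposited for a position and strand, and the count of a gene is the sum over its body on its own strand.

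Both groups came from 1 line, the md MEPA cells, taken from the mandibular part of the pharyngeal arch of mouse embryos at 11.5 days. Their mothers were CD1 females and their father an Immortomouse, a strain that carries a conditional, interferon-inducible large T antigen. All cells were grown at 33 °C with 100 U/ml murine interferon and received 400 mJ/cm2 at 254 nm. The RBM10 antibody (ab72423, Abcam) binds both mouse isoforms of the protein, and the control was rabbit IgG. The 4 RBM10 experiments were independent, and each had its own IgG precipitation. RBM10 was present in the cells of both groups, so the IgG libraries show what is recovered without the specific antibody, not what remains when the protein is gone. RNA levels were taken from 3 wild-type md samples of polyadenylated RNA, in TPM. TPM of 4 Rbm10 knockout md samples was also used, for a comparison of RNA levels with wild type.

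RBM10 is an RNA-binding protein of the spliceosome that changes which exons are joined, often favouring the skipping of an exon. Introns are removed in the nucleus after U2, a small nuclear RNA with its proteins, has settled on the branch point close to the end of the intron. The number of introns of a gene therefore sets how often this step takes place on each of its transcripts.

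The RBM10 libraries held 774816 to 2847066 crosslinks and the IgG libraries 103017 to 2214515. IgG libraries 3 and 4 were the shallowest, with 103017 and 157986, so low genes often held none there. In IgG library 4 a single position took 12.1% of all crosslinks. Protein-coding gene bodies took 75.8 to 87.5% of RBM10 crosslinks and 60.6 to 68.3% of IgG crosslinks. The libraries did not fall into 2 simple groups. Across tested genes RBM10 libraries 1 and 2 were most like each other (Spearman 0.97), as were libraries 3 and 4 (0.96), and library 2 was as close to IgG library 1 (0.91) as to RBM10 library 4 (0.90). Every difference in shares and coefficients given below was smaller in pairs 1 and 2 than in pairs 3 and 4. Each antibody's libraries had a lane of their own, and the effect of the lane and that of the antibody cannot be told apart. Of 15 markers of arch mesenchyme, 7 reached 1 TPM in wild-type md cells, among them Vim, Col1a1, Prrx1 and Twist1, while Msx2, Hand1, Hand2, Barx1 and Alx4 were listed at 0. Of 6 epithelial, 4 endothelial, 4 leukocyte and 4 muscle markers only Cd68 reached 1 TPM. In such bulk RNA fewer cells of a type and less RNA per cell cannot be told apart. The summed level of the 4 neural markers was 32.7 to 36.6 TPM, nearly all Tubb3.

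The sequences around the most crosslinked RBM10 position are shown for 8 of the 12 genes with the largest rise over IgG, since they let the contact be seen on the RNA. Each runs 5′ to 3′ on the gene's strand, is 30 bases of mm9, and has the crosslinked nucleotide in capitals.
Rps27, 3:90017264-90017293, minus strand: agtgggggctctttCccatcatctctttcc
Adrm1, 2:179907423-179907452, plus strand: gtcttcactggggtCtgagacttcttgact
Impdh2, 9:108465386-108465415, plus strand: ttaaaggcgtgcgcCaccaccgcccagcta
Rps21, 2:179992843-179992872, plus strand: gaatggttttgggcTtaatagtgcatgctc
Ftl1, 7:52713695-52713724, minus strand: tttttttaaagcttCctgctcacacctgtc
Col7a1, 9:108881723-108881752, plus strand: tgctgacccttgtcCccatggcaatgggtg
Sat1, X:151648722-151648751, minus strand: gcttctgattctacCaatacagcttgaatg
Actg1, 11:120208818-120208847, minus strand: tctgttcctcttctCctggcatttcctccc
At 11 of the 12 positions the crosslinked base was C and at 1, that of Rps21, it was T. In a window of 150 nt before the next exon of a coding transcript lay 9 of the 12, at 56 to 124 nt. Rps27 at 56 nt, Ftl1 at 57 nt, Sat1 at 60 nt, Impdh2 at 67 nt, Rps21 at 78 nt, Col7a1 at 107 nt and Adrm1 at 124 nt are 7 of these. Outside it lay Actg1 at 170 nt, Naaladl1 at 384 nt and BC005624 at 594 nt. Some introns are short: the exon before ended 95 nt upstream of the position in Rps21 and 162 nt in Col7a1. The share of other intronic positions in this window was not measured. By annotation 8 of the positions are intronic. In Adrm1, Ppox, Sat1 and Actg1 the position lies in an intron of the protein-coding transcripts but in an exon of another transcript of the gene, which in Actg1 is one marked for nonsense-mediated decay and one that retains the intron. These positions were picked for their RBM10 counts, 7 to 79 crosslinks over the 4 libraries, so the 0 to 2 crosslinks that the IgG libraries held there are a description and no test.

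Over whole gene bodies, 1860 protein-coding genes held more crosslinks in RBM10 than in IgG and 1336 held fewer (21.3% and 15.3% of those tested; edgeR quasi-likelihood test, adjusted p under 0.05). Together that is 36.5%, and over all 9284 genes of every biotype 37.4% were called, 20.4% higher and 17.0% lower. The groups did not overlap in 3182 protein-coding genes (36.4%). Low genes enter the test through the group where they are high: of the genes called higher 90 had no IgG library at the 9.62 CPM that the filter on low counts asks for and 694 had fewer than 4, and of those called lower 16 had no RBM10 library at it and 189 fewer than 4. Among the 4216 genes with a mean of at least 50 CPM over all 8 libraries, a limit chosen after seeing the data, 1061 were higher (25.2%) and 945 lower (22.4%). The split between the directions rests on the scaling. With TMM factors 58.2% of the calls were higher and the median log2 fold change of all protein-coding genes was 0.10. Without these factors 78.7% were higher and the median was 0.37, and with DESeq2 62.1% and 0.16. Changes below are with TMM factors, in CPM, which are crosslinks scaled to library size. RBM10 libraries 1 and 2 against all 4 IgG libraries gave 1559 genes higher and 749 lower, and RBM10 libraries 3 and 4 gave 2291 and 2058. Among the 539 tested genes that are not protein-coding the balance was the other way, with 33 higher (6.12%) and 243 lower (45.1%).

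The largest fold changes were in genes with few crosslinks in IgG. Of the 15 with the largest, 9 held 0 crosslinks in IgG libraries 3 and 4. In Rps27, Naaladl1, Rps21, Slc27a3, BC005624 and Mus81 no IgG library reached the filter, so these 6 were tested only because they were high in RBM10, and their values are a description. Of the 15, 14 had fewer than 4 IgG libraries at the filter, all but Actg1. They too entered the test through RBM10, where they were high, so their values are a description as well. Rps27, a protein of the small ribosomal subunit, held 24.98, 19.99, 41.2 and 18.3 CPM in RBM10 libraries 1 to 4 and 2.23, 1.96, 0 and 0 CPM in the IgG libraries (log2 fold change 3.78, SE 0.56). The IgG values are 2, 4, 0 and 0 crosslinks, so the size of this fold is poorly known. Impdh2, the enzyme that commits purine synthesis to guanine nucleotides, held 96.6, 95.0, 156.8 and 108.7 CPM against 16.7, 13.3, 20.5 and 0 (3.04, SE 0.33). All 4 RBM10 libraries lay far above all 4 IgG libraries in both genes.

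Actg1, the cytoplasmic gamma actin, held 210.7, 147.6, 280.8 and 343.2 CPM against 45.7, 21.6, 61.4 and 37.3 (log2 fold change 2.80, SE 0.35, edgeR adjusted p = 0.00031). Col7a1, the collagen of anchoring fibrils and a gene with 118 introns in 31290 bases, held 179.9, 115.9, 210.6 and 207.7 CPM against 36.8, 21.1, 0 and 0 (2.92, SE 0.39). Sat1, the enzyme that starts polyamine breakdown, held 84.1, 76.6, 93.2 and 95.3 CPM against 13.4, 13.3, 0 and 0 (2.90, SE 0.34). In each of these the lowest RBM10 library was more than double the highest IgG library.

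Adrm1, a ubiquitin receptor of the proteasome, rose by 3.32, and Ftl1, the light chain of the iron store ferritin, rose by 2.95. Ppox, an enzyme of haem synthesis (2.92), Josd2, a deubiquitinase (2.70), and Rnf25, a ubiquitin ligase (2.69), also rose. The genes that no IgG library carried over the filter had log2 fold changes of 3.66 for Naaladl1, a peptidase, 2.95 for Rps21, 2.86 for Slc27a3, a fatty acid transport protein, 2.84 for BC005624 and 2.74 for Mus81, a nuclease that resolves joined DNA. Each of these 5 held 0 crosslinks in IgG libraries 3 and 4 and at most 9 in IgG libraries 1 and 2. Single IgG libraries moved several of these sizes by over 1.5 times. Without IgG library 2 the log2 fold change was 2.11 for Ppox, 3.62 for Slc27a3 and 4.64 for Naaladl1, and without IgG library 1 it was 3.37 for Josd2, 3.57 for Rps21 and 3.91 for Adrm1. The 15 genes span at most 31290 bases each, and 14 of them at most 10011.

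The 10 genes with the largest fall held 5 without an intron and 3 very long ones, besides Mapk15 and Taco1. Hist1h3c, Hist2h3b and Hist1h3h encode histone H3 and have no intron. Hist1h3c held 7.49, 12.3, 1.74 and 8.55 CPM in RBM10 and 22.3, 47.1, 102.3 and 44.8 in IgG (log2 fold change -2.59, SE 0.55). Atxn7l3b and Itpripl2, also without an intron, had log2 fold changes of -2.26 and -2.36. Pcdh9 and Cdh18, adhesion proteins of the cadherin superfamily, and Ppp1r9a, an actin-binding scaffold of neurons, span 873221, 925397 and 262658 bases with 3, 11 and 15 introns, and had log2 fold changes of -2.45, -2.27 and -3.05. In Ppp1r9a and Itpripl2 no RBM10 library reached the filter. These 2 were tested only because they were high in IgG, and their values are a description. Of the 10, 9 had fewer than 4 RBM10 libraries at the filter, all but Taco1. They too entered the test through IgG, where they were high, so their values are a description as well. Single libraries mattered here too. Without IgG library 2 Cdh18 no longer passed (-1.84, edgeR adjusted p = 0.059). Without RBM10 library 2 it was -3.22, and Hist1h3c (-3.21), Hist2h3b (-3.19), Atxn7l3b (-2.97) and Hist1h3h (-2.89) lay lower as well, while Ppp1r9a was -2.45 without RBM10 library 3.

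Some of these genes held many of their crosslinks at a single position. In Mapk15, a kinase gene listed at 0 TPM, the top position held 98.4% of the RBM10 and 97.5% of the IgG crosslinks (log2 fold change -2.61). For Ppp1r9a these shares were 48.4 and 48.9%, for Cdh18 44.2 and 48.4%, and for Taco1, a mitochondrial translation activator that fell by 2.24, they were 20.3 and 25.6%. In the histone genes, Pcdh9, Itpripl2 and Atxn7l3b the top position held at most 24.7% in either group.

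**Figure D1:**
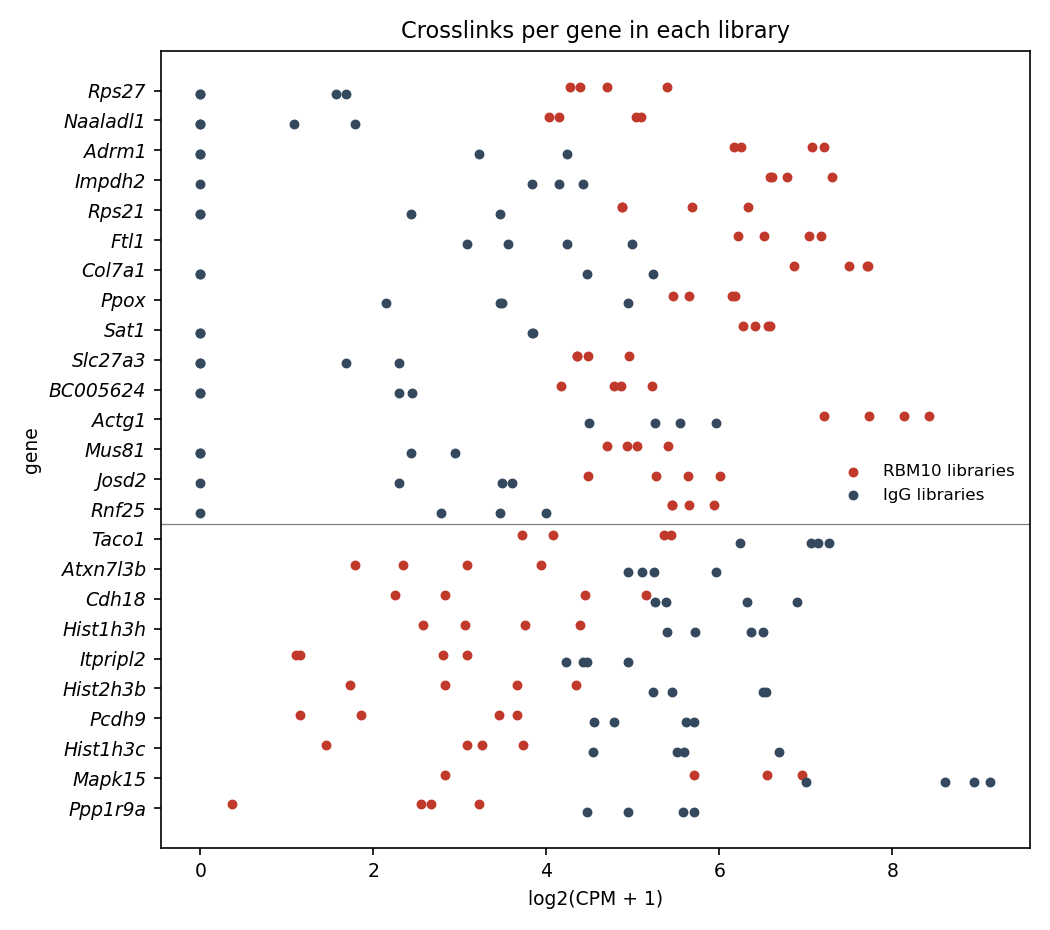
Crosslinks per gene in each library, as log2(CPM + 1), for the 15 genes with the largest and the 10 with the smallest fold change. Red points are the 4 RBM10 libraries and dark points the 4 IgG libraries of each gene. No gene shows overlap of the groups, and in Cdh18 and Mapk15 the nearest libraries almost touch.

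The most crosslinked genes were not those with the largest change. Col1a2, a chain of type I collagen, held 4813, 4249, 8253 and 8288 CPM in RBM10 and 2216, 1881, 2691 and 2515 in IgG (log2 fold change 1.46, SE 0.27, edgeR adjusted p = 0.0020). Col1a1, its partner chain, held 1697, 1285, 2457 and 2604 CPM against 1117, 911.9, 2005 and 1903, so the groups overlapped (0.46, SE 0.30, edgeR adjusted p = 0.23). Thbs1, a matrix glycoprotein that binds cells, also overlapped between groups, though it passed the test (0.78, edgeR adjusted p = 0.026). It did not pass without RBM10 library 3 (0.63), IgG library 1 (0.74) or IgG library 2 (0.67). With each position counted once its change was -0.05. Cdk8, a kinase of the Mediator complex, was lower in RBM10 with 2391, 2880, 784.8 and 1328 CPM against 6894, 4983, 6200 and 6104 (-1.71, SE 0.34, edgeR adjusted p = 0.0030). Only 59.6% of its crosslinks lie in no other gene of the same strand. Gm20388, a predicted gene of 4434882 bases that spans other genes, was also among the 5 most crosslinked, but only 21.2% of its crosslinks are in it alone (0.02, edgeR adjusted p = 0.94).

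The change followed the number of introns. Of 72 tested genes without an intron 1 was higher and 52 lower, with a median log2 fold change of -1.64. Among 492 genes with 1 to 2 introns 2.64% were higher and 37.2% lower. The median was -0.22 with 3 to 5 introns, 0.12 with 6 to 10, 0.29 with 11 to 20 and 0.38 with over 20. In this last class 37.3% of 1248 genes were higher and 7.37% lower.

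Put as a share of all crosslinks in nuclear protein-coding gene bodies, genes with over 20 introns took 29.1, 28.2, 31.8 and 31.3% in RBM10 libraries 1 to 4 and 24.6, 24.1, 24.4 and 24.3% in IgG. That is 30.1 ± 1.74% against 24.3 ± 0.180% (SD, n = 4 in each group; exact permutation p = 0.0286, 2-sided and the lowest possible with 4 against 4, also after adjustment over 6 classes). Genes without an intron took 0.203 ± 0.104% against 0.627 ± 0.0568% (n = 4 each; the same exact permutation p). All 6 classes had groups that did not overlap.

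Long genes went the other way. Genes over 100 kb took 25.95, 27.2, 21.6 and 22.02% of RBM10 crosslinks and 33.7, 34.8, 35.2 and 35.5% of IgG crosslinks (24.2 ± 2.80% against 34.8 ± 0.782%, SD, n = 4 each; exact permutation p = 0.0286, adjusted 0.0357 over 5 classes). Of the 1294 tested genes of this length 3.40% were higher and 44.4% lower. Genes of 5 to 20 kb and of 20 to 50 kb took 20.7 ± 1.38% and 30.3 ± 1.97% in RBM10 against 15.2 ± 0.496% and 24.1 ± 0.237% in IgG (n = 4 each, the same adjusted exact permutation p). For genes up to 5 kb the groups overlapped (3.37 ± 0.194% against 3.64 ± 0.0633%, exact permutation p = 0.0571).

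Taken with each other, length and intron number gave a graded pattern. Within 20 to 50 kb, genes with 1 to 2 introns were higher in 0 of 92 and lower in 49 (median log2 fold change -0.95), while genes with over 20 introns were higher in 200 of 292 and lower in 1 (0.93). Within 5 to 20 kb, genes with over 20 introns were higher in 74 of 94 and lower in 0 (1.24). Within over 100 kb, genes with 1 to 2 introns were lower in 17 of 20 (-1.24), and those with over 20 introns were higher in 38 and lower in 90 of 484 (-0.16). At every length the median went up with each step in intron number, and among genes with an intron it went down with each step in length.

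**Figure D2:**
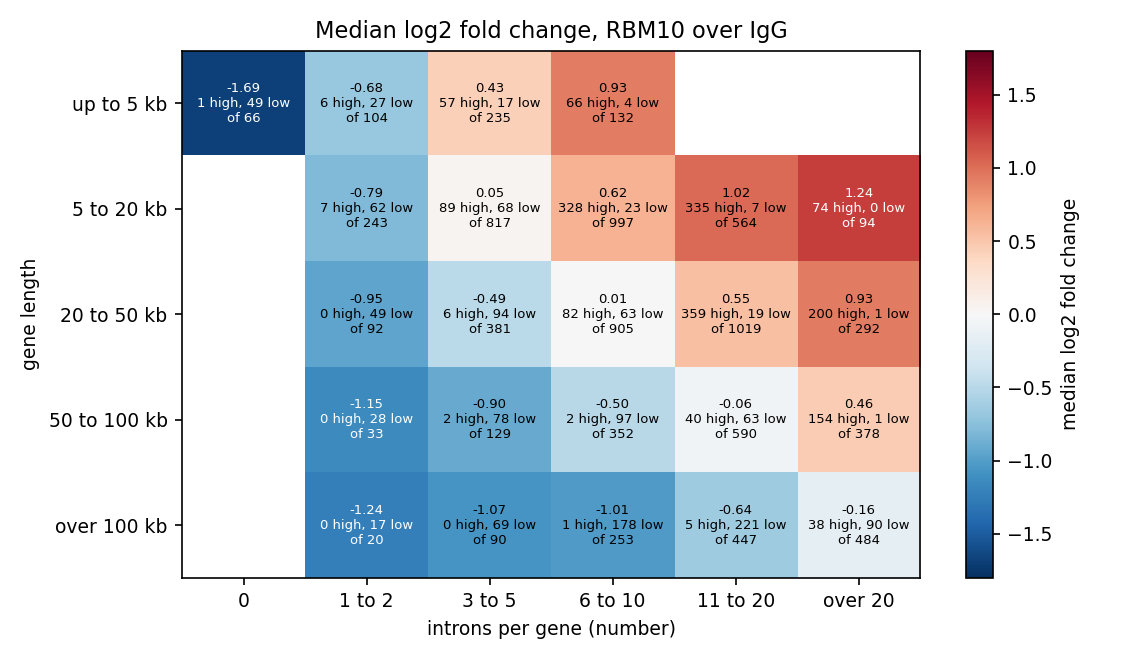
Median log2 fold change of RBM10 over IgG for genes grouped by length (rows) and number of introns (columns), with the counts of genes called higher and lower out of those tested; classes with under 20 genes are blank. Red is higher in RBM10 and blue lower. The medians run from -1.69 in short genes without an intron to 1.24 in genes of 5 to 20 kb with over 20 introns.

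The length of gene per intron ordered the genes more closely than either measure alone. Across 8662 genes with an intron its Spearman correlation with the log2 fold change was -0.71, against 0.33 for intron number and -0.36 for length. With CPM itself, length per intron had a correlation of -0.01 in RBM10 and 0.35 in IgG. These correlations run across genes that share the same 8 libraries and are given as a description. Genes higher in RBM10 had a median of 13 introns, 18.9 kb and 1.44 kb per intron. Genes lower in RBM10 had a median of 7 introns, 78.8 kb and 11.5 kb per intron, and genes not called 9 introns, 28.8 kb and 3.30 kb. Among genes with a mean of at least 50 CPM over all 8 libraries the medians were 17 introns and 27.2 kb for the higher, 8 introns and 103.5 kb for the lower and 14 introns and 50.6 kb for those not called.

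A regression within each library separated the properties, on 10480 nuclear genes with at least 1 TPM in wild-type md cells. Its coefficients give the change in the natural log of crosslinks per gene for each doubling of 1 property with the other properties held. For intron number they were 0.58, 0.47, 0.89 and 0.85 in RBM10 libraries 1 to 4 and 0.06, -0.01, 0.05 and 0.04 in the IgG libraries. The means were 0.70 ± 0.21 and 0.03 ± 0.03 (SD, n = 4 each; exact permutation p = 0.0286, adjusted 0.0429 over 3 properties). For gene length they were 0.45, 0.48, 0.36 and 0.34 in RBM10 and 0.67, 0.68, 0.76 and 0.75 in IgG (0.41 ± 0.07 against 0.72 ± 0.05, n = 4 each, same exact permutation p). IgG crosslinks thus grew with length and hardly at all with intron number, and RBM10 crosslinks grew with both. The difference for intron number was 0.50 in pairs 1 and 2 and 0.83 in pairs 3 and 4. Length and intron number are themselves correlated across these genes (Pearson r = 0.66), so the coefficients depend on each other.

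RNA level did not separate the antibodies in this way. The TPM coefficients were 0.40, 0.40, 0.44 and 0.43 in RBM10 and 0.41, 0.40, 0.45 and 0.45 in IgG (0.42 ± 0.02 against 0.43 ± 0.03, n = 4 each, exact permutation p = 0.543). It was lower in RBM10 in 4 of 4 pairs, and the difference of -0.01 became -0.07 when only genes of at least 10 TPM were used (exact permutation p = 0.0286). Genes of at least 100 TPM took 18.4 ± 0.804% of RBM10 and 16.9 ± 0.192% of IgG crosslinks (n = 4 each, exact permutation p = 0.0286). This difference of 1.51 points was 0.18 points when each position was counted once (p = 0.83, exact permutation). Genes under 1 TPM took 1.93 ± 0.205% against 2.80 ± 0.318%.

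**Figure D3:**
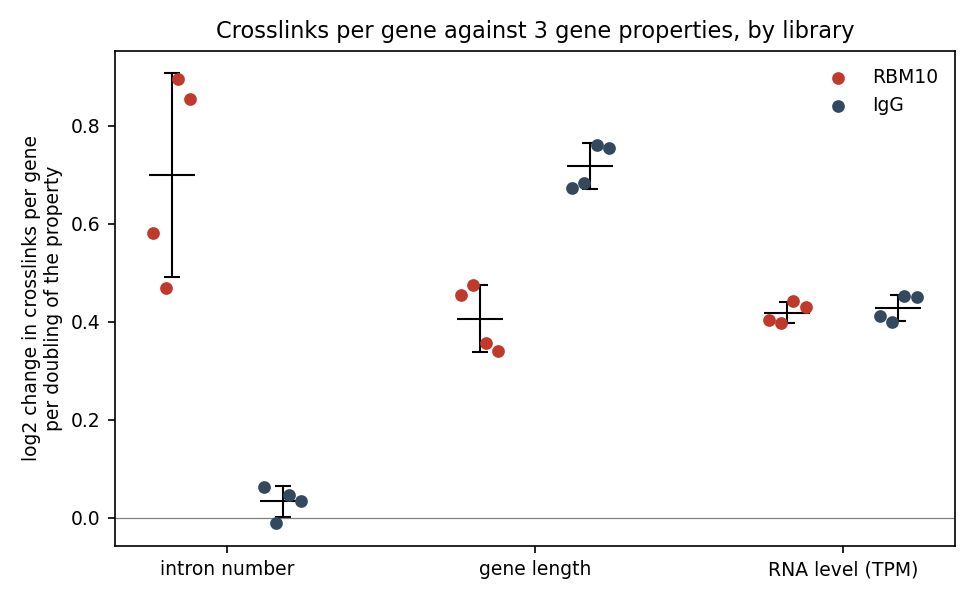
Coefficients of a negative binomial regression of crosslinks per gene on intron number, gene length and TPM, fitted in each library. The y axis, marked as log2, gives the change in the natural log of crosslinks per doubling. Each point is a library, and the black bars are the mean and SD of 4. For intron number the RBM10 libraries lie at 0.47 to 0.89 and the IgG libraries near 0, for length RBM10 lies below IgG, and for TPM the groups overlap.

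Along the gene body the RBM10 crosslinks leaned towards the 3′ end. In genes of at least 10 kb the first decile held 8.53, 8.86, 6.74 and 7.14% of RBM10 crosslinks and 11.8, 11.8, 12.4 and 12.2% of IgG crosslinks (7.82 ± 1.03% against 12.1 ± 0.303%, SD, n = 4 each; exact permutation p = 0.0286, adjusted 0.0357 over 10 deciles). The ninth decile held 12.9 ± 0.975% against 9.20 ± 0.133% (n = 4 each, same exact permutation p). From the sixth decile to the ninth RBM10 lay above IgG in every library, and from the first to the fourth below it. In the last decile the order turned again, with 13.6 ± 0.533% against 14.5 ± 0.386% and overlapping groups (exact permutation p = 0.0571, adjusted 0.0635). Annotated exon starts after the first exon are themselves unevenly placed: 5.71% of them lie in the first decile, 14.6% in the ninth and 17.8% in the last.

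**Figure D4:**
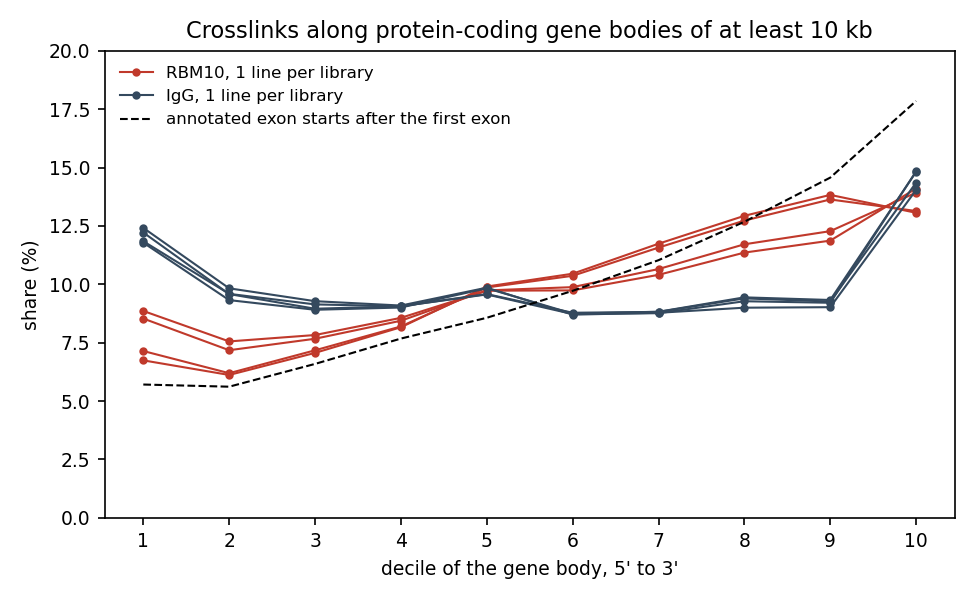
Share of crosslinks (percent, y axis) in each decile of protein-coding gene bodies of at least 10 kb from 5′ to 3′ (x axis), 1 line per library, red for RBM10 and dark for IgG. The dashed line is the share of annotated exon starts after the first exon. RBM10 lines climb from 6.74 to 8.86% in the first decile to 11.9 to 13.8% in the ninth, while IgG lines are high at both ends.

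Within genes the RBM10 crosslinks were more intronic. Introns held 77.7, 76.2, 83.0 and 82.5% of the crosslinks in protein-coding gene bodies in RBM10 and 69.97, 70.02, 71.9 and 72.2% in IgG (79.9 ± 3.39% against 71.0 ± 1.20%, SD, n = 4 each; exact permutation p = 0.0286). An exon here is any annotated exon of the gene, those of noncoding, intron-retaining and decay-prone transcripts included, and many of those cover introns of the coding transcripts. Split by transcript, exons of coding transcripts held 13.3 ± 4.50% in RBM10 and 26.2 ± 1.13% in IgG, while exons found only in such other transcripts held 6.87 ± 1.11% and 2.82 ± 0.145% (n = 4 each, exact permutation p = 0.0286 for both). The same-strand share was 97.4, 97.5, 98.8 and 96.1% in RBM10 and 95.7, 95.9, 90.8 and 79.5% in IgG.

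Gene by gene, the exon to intron balance was tested in 8432 protein-coding genes with crosslinks in both. It was more intronic in RBM10 in 2547 (30.2%) and more exonic in 65 (0.771%; 30.7% called in all over every biotype; edgeR quasi-likelihood test of the compartment by antibody term). With the totals of each compartment as the offset, so that a gene is compared with the shift of all genes, 1217 were more intronic and 335 more exonic. RBM10 libraries 1 and 2 against the 4 IgG libraries gave 1749 and 54.

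The 5 genes with the lowest p for an intronic shift were Thbs1, Col1a1, Col1a2, Vim and Prpf8. Of the crosslinks in Thbs1 67.6, 65.1, 84.8 and 81.5% were intronic in RBM10 and 25.7, 17.5, 20.1 and 23.4% in IgG (log2 change of the intron to exon ratio 3.51, SE 0.36, edgeR adjusted p = 3.7e-12). Col1a1 went from 24.1, 12.97, 16.3 and 20% in IgG to 62.8, 56.3, 80.2 and 78.2% in RBM10 (3.43, SE 0.36, edgeR adjusted p = 8.3e-12), although its total did not pass the test. Vim, the intermediate filament of mesenchymal cells, shifted by 3.25 with no change called in its total (0.16, edgeR adjusted p = 0.48). Prpf8, the core protein of the spliceosome's catalytic centre, shifted by 3.88 and Col1a2 by 2.52. In all 5 genes every RBM10 library was more intronic than every IgG library.

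The 5 genes with the lowest p for an exonic shift did not keep it under another definition of an exon. They were Rps6 (log2 change of the intron to exon ratio -4.36), Rps18 (-2.67), both proteins of the small ribosomal subunit, Srsf3, an SR splicing factor (-2.38), Clcf1, a cytokine (-2.27), and Mtmr2, a lipid phosphatase (-2.17). With exons of coding transcripts alone, the values were 3.86 for Srsf3 (edgeR adjusted p = 2.8e-06) and 1.61 for Mtmr2 (edgeR adjusted p = 0.042). Those of Rps6 (1.797, edgeR adjusted p = 0.38) and Clcf1 (1.097, edgeR adjusted p = 0.17) did not pass. That of Rps18 was -0.43 and no longer passed (edgeR adjusted p = 0.73). Under this definition 3152 genes were more intronic and 19 more exonic. In Srsf3 17.5% of the RBM10 crosslinks are intronic when any exon counts, and its total rose by 1.90 (259.8, 242.6, 336.3 and 295.6 CPM against 101.4, 76.1, 40.9 and 44.8, edgeR adjusted p = 0.00031).

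The crosslinked nucleotide differed as well. In protein-coding gene bodies it was C in 35.2, 32.4, 45.5 and 44.3% of RBM10 crosslinks and in 15.9, 14.3, 13.9 and 15.1% of IgG crosslinks (39.3 ± 6.53% against 14.8 ± 0.903%, SD, n = 4 each; exact permutation p = 0.0286). It was U in 38.5 ± 5.40% against 55.7 ± 1.18%, A in 7.48 ± 0.852% against 11.4 ± 0.321% and G in 14.6 ± 0.350% against 18.2 ± 0.801% (n = 4 each, exact permutation p = 0.0286 for each). RBM10 libraries 3 and 4 stood highest for C and libraries 1 and 2 between them and IgG.

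Short words around the intronic positions followed the same base. Each possible tetramer was scored by the percent of crosslinked intronic positions with it within 10 nt, each position counted once. Of these 101 (39.5%) were higher and 89 (34.8%) lower in RBM10 (limma, adjusted p under 0.05). All 13 tetramers with 3 or 4 C were higher, as were 53 of 54 with 2 C, whereas of 81 without C 0 were higher and 73 lower. CCCA lay near 11.7, 10.9, 12.5 and 12.8% of RBM10 positions and 7.64, 7.15, 6.81 and 7.20% of IgG positions (log2 ratio 0.73, SE 0.05, limma adjusted p = 4.1e-06). CCAC (0.71), ACCC (0.74), CACC (0.67) and CCCC (0.74) were next by p. UUUG lay near 12.6 ± 0.649% against 17.5 ± 0.967% (-0.48, limma, n = 4 each), and UUGU (-0.39), UUGA (-0.37), GUUU (-0.48) and UGUU (-0.32) also fell. Overlapping windows and overlapping tetramers make these values dependent on each other. The window includes the crosslinked nucleotide, so the tetramer values are not independent of the base at the crosslink.

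Genes of the splicing machinery were among those with more RBM10 crosslinks. Of 14 tested U2 and branch point proteins 10 were higher and 0 lower, with a median log2 fold change of 1.06, against 21.3% higher, 15.3% lower and a median of 0.10 over all protein-coding genes. Rbm17, a factor that helps define the 3′ splice site, held 69.9, 65.0, 107.2 and 98.9 CPM against 26.7, 28.5, 10.2 and 22.4 (1.71, SE 0.28, edgeR adjusted p = 0.0011). U2af2, which reads the polypyrimidine tract, held 293.9, 225.6, 341.0 and 357.9 CPM against 132.6, 119.3, 163.7 and 89.5 (1.28, SE 0.21), and Sf3a3, of the U2 particle, changed by 1.32. These genes have a median of 11 introns in 16.01 kb. All tested genes of 5 to 20 kb with 11 to 20 introns were higher in 335 of 564 (59.4%) and lower in 7. Their median was 1.02, near that of the list.

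Over all protein-coding genes 21.3% were higher and 15.3% lower, against which these lists are read. The lists are not matched to all genes in length or intron number. SR, hnRNP and DEAD box lists have medians of 8, 10 and 14 introns in 15.15, 14.2 and 17.8 kb. Of the 997 tested genes of 5 to 20 kb with 6 to 10 introns 32.9% were higher and 2.31% lower (median 0.62). With 11 to 20 introns 59.4% of 564 such genes were higher and 1.24% lower (median 1.02). SR proteins and their kinases were higher in 8 of 21 (38.1%) and lower in 1 (median 0.49). Besides Srsf3 these were led by Clk2, a kinase that phosphorylates SR proteins (130.7, 98.3, 139.1 and 145.4 CPM against 47.9, 30.9, 30.7 and 67.2, log2 fold change 1.64), and Srsf7 (1.16), and Srsf6 was lower (-0.81). The hnRNP proteins, which coat nascent RNA, lay nearer to all genes, with 8 of 24 higher (33.3%) and 5 lower (20.8%; median 0.28). Without TMM factors these counts were 12 and 3. Hnrnpa1 held 149.0, 143.9, 239.9 and 182.0 CPM against 49.0, 44.2, 51.2 and 22.4 (2.02, SE 0.25, edgeR adjusted p = 0.00031), and Hnrnpa3 (1.56) and Hnrnpa2b1 (1.28) were also higher. Pcbp1 (-1.97) and Hnrnpa0 (-1.81) were lower. DEAD box helicases, which unwind RNA, were higher in 12 of 22 (54.5%) and lower in 1 (median 0.67), with Ddx18 at 2.24, Ddx5 at 1.81 and Ddx39 at 1.26.

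Genes of chromosome segregation and repair also had more calls on the higher side. Among 25 mitotic genes 12 held more (48%, against 21.3% of all protein-coding genes) and 0 fewer (against 15.3%), with a median of 0.63. They have a median of 21 introns in 29.9 kb. Of the 292 tested genes of 20 to 50 kb with over 20 introns 68.5% were higher and 0.342% lower (median 0.93). Tacc3, a spindle protein, held 282.3, 250.6, 364.8 and 316.4 CPM against 65.7, 56.9, 20.5 and 74.6 (log2 fold change 2.37, SE 0.24, edgeR adjusted p = 8.6e-05), Espl1, the protease separase, changed by 1.55 and Aurkb, the chromosomal passenger kinase, by 1.32. Of 16 tested Fanconi and recombination genes 7 were higher (43.8%) and 0 lower (median 0.62), led by Fanca (2.02), Slx4 (1.42) and Fancd2 (1.40). Fanca has 42 introns in 50277 bases. The tested Fanconi and recombination genes have a median of 15 introns in 48.7 kb. Of the 1019 tested genes of 20 to 50 kb with 11 to 20 introns 35.2% were higher and 1.86% lower (median 0.55).

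Of 75 tested ribosomal protein genes 27 were higher (36%, against 21.3% of all protein-coding genes) and 11 lower (14.7%, against 15.3%), and the median was 0.48. Without TMM factors 34 were higher and 5 lower. These genes have a median of 4 introns in 3.37 kb. Of the 235 tested genes up to 5 kb with 3 to 5 introns, ribosomal ones included, 24.3% were higher and 7.23% lower (median 0.43). Beside Rps27 and Rps21, Rpl9 held 99.1, 74.6, 159.4 and 156.4 CPM against 15.6, 28.0, 51.2 and 7.46 (log2 fold change 2.38, SE 0.36, edgeR adjusted p = 0.00084) and Rpl12 changed by 2.03. Rpl8 (-1.19), Rps3 (-1.14) and Rps13 (-1.10) were among the lower ones. Processed copies of these genes could share reads with them, so single values are uncertain. Translation factors were higher in 3 and lower in 3 of 25 (12% each; median 0.12), with 9 and 2 when TMM factors were left out. The called ones include Eef1g at 1.51, Eef1b2 at -0.86 and Eif3h at -0.75.

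The matrix and glycolysis lists had no lower call, where all protein-coding genes had 21.3% higher and 15.3% lower. Of 23 matrix genes 8 were higher (34.8%) and 0 lower (median 0.46), with Col1a2 above, Col6a1 at 0.97 and Hspg2, the basement membrane proteoglycan perlecan, at 0.79. The matrix genes have a median of 45 introns in 67.7 kb. Of the 378 tested genes of 50 to 100 kb with over 20 introns 40.7% were higher and 0.265% lower (median 0.46). Of 14 glycolytic genes 7 were higher (50%) and 0 lower (median 0.62), with Gapdh at 1.56, Eno1 at 1.45 and Pfkp at 0.89. The glycolytic genes have a median of 10 introns in 19.7 kb. Of the 997 tested genes of 5 to 20 kb with 6 to 10 introns 32.9% were higher and 2.31% lower (median 0.62). Actin cytoskeleton genes were close to all genes, with 4 of 20 higher (20%) and 1 lower and a median of 0.09. They include Actg1 above, Tln1, which links integrins to actin, at 1.26 and Flna, an actin crosslinker, at 0.68.

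Interferon response genes, in cells grown with interferon, had 13 of 23 tested entries higher (56.5%, against 21.3% of all protein-coding genes) and 1 lower (median 0.67). These entries have a median of 9 introns in 12.8 kb. Of the 997 tested genes of 5 to 20 kb with 6 to 10 introns 32.9% were higher and 2.31% lower (median 0.62). Stat2 held 413.0, 347.2, 397.3 and 513.0 CPM against 108.1, 98.7, 71.6 and 67.2 (log2 fold change 2.16, SE 0.21, edgeR adjusted p = 8.6e-05). Its partner Irf9 changed by 1.87 and Psmb8, an immunoproteasome subunit, by 1.09, while B2m, the light chain of class I molecules, was lower (-0.91). Psmb9 is annotated under 2 identifiers and is 2 of the 13 entries called higher.

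Histones and arch patterning genes were the lists on the lower side. Of 35 tested replication-dependent histone genes, whose messages end in a stem loop and have no intron, 0 were higher and 29 lower (82.9%). Over all protein-coding genes 21.3% were higher and 15.3% lower. The histone median was -1.76. Genes up to 5 kb without an intron were lower in 49 of 66 (74.2%, median -1.69). That class holds many of these same histone genes, so it is no separate reference for the list. Hist1h1a, a linker histone, held 39.97, 55.3, 15.97 and 15.9 CPM against 113.6, 132.5, 133.0 and 141.8 (log2 fold change -1.97, SE 0.36, edgeR adjusted p = 0.0018). Arch patterning genes were tested in 12 entries of 32 annotated, of which 0 were higher and 7 lower (58.3%; median -1.05). Meis2, Prrx1 and Twist2 were lower, as was Runx2, a regulator of bone formation that is annotated under 2 overlapping identifiers (-1.19 and -1.12). The tested entries have a median length of 139.9 kb with 8 introns. All tested genes of over 100 kb with 6 to 10 introns were lower in 178 of 253 (70.4%, median -1.01).

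Without TMM factors the medians of the U2 (1.33), histone (-1.53) and arch patterning (-0.80) lists kept their signs, and so did those of all 14 lists, while 6 of the patterning entries were called lower. The same signs held with DESeq2. The mitochondrially encoded genes, which have no intron and are not spliced, were lower in 6 of 7 (median -1.84), against 15.3% of all protein-coding genes.

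**Figure D5:**
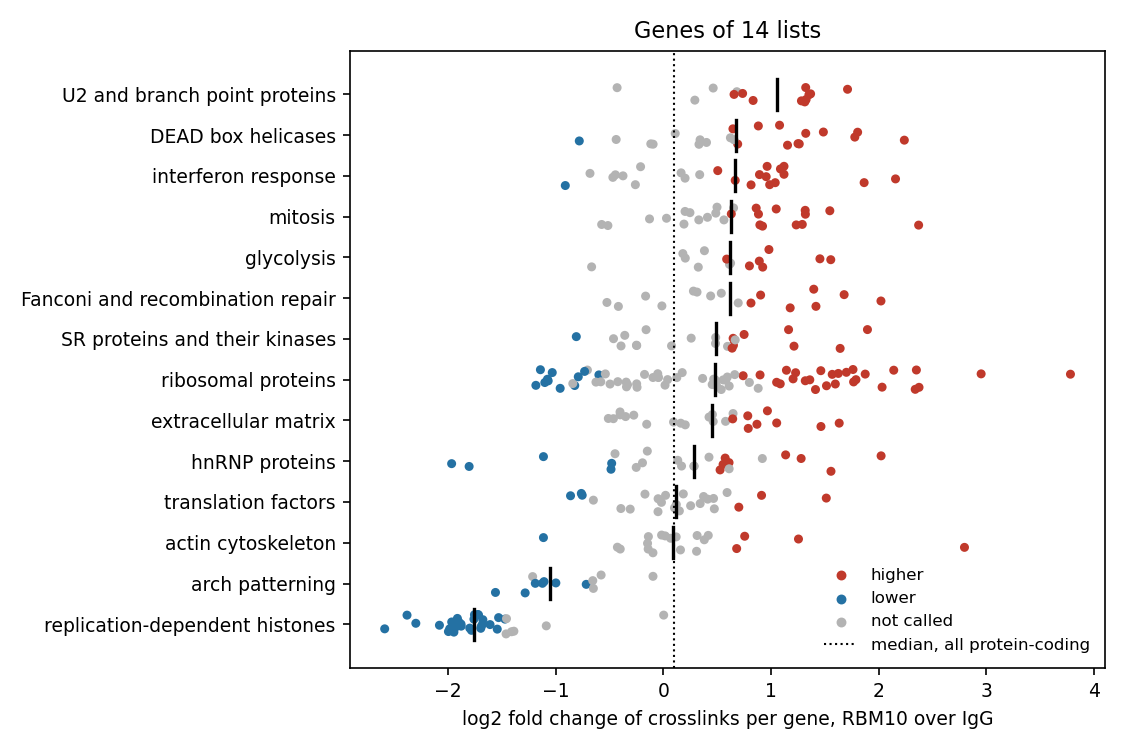
Log2 fold change of crosslinks per gene (x axis, RBM10 over IgG, TMM scaling) for the tested genes of 14 lists. Each point is a gene, red if called higher, blue if lower and grey if not called; black bars are list medians and the dotted line is the median of all protein-coding genes, 0.10. The histone list at -1.76 and the arch patterning list at -1.05 lie on the lower side and the U2 list at 1.06 lies highest.

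RNA levels after disruption of Rbm10 were looked up for the same genes. The change was the difference of mean log2(TPM + 1), 4 knockout clones against 3 wild-type md samples, for genes of at least 1 TPM in wild type. Its median was -0.02 over 1820 genes higher in RBM10, 0.01 over 1235 lower ones and 0.01 over 5367 not called. Their interquartile ranges were -0.15 to 0.12, -0.12 to 0.17 and -0.13 to 0.15. These are medians of genes measured in the same 7 samples and are given as a description.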

How the data were processed

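The authors deposited crosslink counts per position and strand for each iCLIP library, mapped to mm9 per the design text. They also deposited TPM per transcript for RNA-seq, whose depth is unknown. How reads were aligned and whether duplicates were collapsed is not given in the sources used here, so repeated crosslinks at a position may be copies. mm9 and mm10 are both named, with no role, in the submitters' processing notes. Counts were summed over same-strand gene bodies of the mm9 GENCODE vM1 annotation, and a crosslink inside 2 such genes counted for both. Gene TPM was the sum over 84877 of 100249 transcripts joined by identifier.

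Genes of every biotype (9284) were tested in 1 fit with edgeR 4.0.16 (quasi-likelihood, TMM, filterByExpr, which 131 protein-coding genes passed with no library of 1 group at its limit), and p-values were Benjamini-Hochberg adjusted over all of them (37.4% called). The exon to intron balance used edgeR with library, compartment and their term with antibody, on genes with at least 10 crosslinks in each compartment. Tetramers were tested with limma 3.58.1. Shares and coefficients (statsmodels 0.14.6, negative binomial, dispersion 1) were compared by 2-sided exact permutation tests of 4 against 4 libraries. The fits were tested on simulated data.

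Same-numbered libraries are paired by the design text, although their deviations were not correlated (r from -0.02 to 0.03). Exact sign flips of 4 pairs cannot go below p = 0.125.

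Named genes are the 15 largest and 10 smallest called log2 fold changes (no overlap of groups, at least 20 CPM in the higher group, at least 90% of crosslinks in no other gene, no predicted symbol), the 5 with the most RBM10 CPM, up to 3 called members per list, and 5 per direction for the balance and the tetramers. A few other list members were named after their values were seen. The members and lists were chosen with earlier results of these data known. Some genes that the rule names are not reported here.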

Additional observations from a re-analysis of the deposited data

Results flagged for a closer look

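In Irf9 RBM10 library 3 held 70.9 CPM, away from the 56.6, 57.0 and 58.6 CPM of the other RBM10 libraries. All 4 values lay above the IgG libraries. It was the only one of 160 groups of 4 values so far apart, where chance gives about 1 in 20.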

How the results depend on the processing

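Alternatives are differences of RBM10 minus IgG unless they are counts. With the replicate block (exact sign flips of the 4 pairs) no share or coefficient can go below p = 0.125. The paired differences were 8.82 points for the intronic share, 6.9997 for the same-strand share, 0.67 for the intron number and -0.31 for the length coefficient, -0.42 for genes without an intron, 5.77 for over 20 introns, -10.6 for over 100 kb, 1.51 for at least 100 TPM, -4.24 for the first decile and 24.5 for C. Each of these had the same sign in 4 of 4 pairs. In edgeR the block left 1434 genes higher and 1003 lower, and 1638 genes with a changed balance.

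The TPM coefficient, not called at first, passed with libraries thinned to the smallest (-0.0217), with genes of at least 10 TPM (-0.0737) and with intronic crosslinks alone (-0.0277). Genes of at least 100 TPM lost their call with each position counted once (0.18). The same-strand share kept its call with each position counted once, but the difference was 1.15 points. Of the gene counts, exonic crosslinks alone gave 831 genes higher and 163 lower, a test against a fold of 1.5 gave 716 and 278, and no TMM factors gave 736 lower. RBM10 libraries 1 and 2 against the 4 IgG libraries gave 749 lower, and RBM10 libraries 3 and 4 gave 2058 lower and 4008 with a changed balance, against 1552 with compartment totals as the offset. These splits by library, the coding exons and the intronic regression were chosen after seeing the data. The causes of these shifts were not tested. Exons hold fewer crosslinks than whole gene bodies, and the fold test has a stricter null.

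Leaving out 1 library gave 1021 to 2042 genes higher, 665 to 1660 lower and 1179 to 3229 with a changed balance. Without IgG library 2 the counts were 1021, 665 and 1179, without IgG library 1 824 were lower and 1471 had a changed balance, without RBM10 library 4 787 were lower, and without RBM10 library 3 1719 had a changed balance. The intronic share then ranged from 7.77 to 10.0, the same-strand share from 3.36 to 8.80, at least 100 TPM from 1.25 to 1.75 and the last decile from -1.13 to -0.788. The first was p = 0.0571 (exact permutation) without IgG library 1 or 2, the second lost its call without any 1 RBM10 library, the third without any 1 IgG library, and the last decile passed without RBM10 library 2.

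Among single genes 12 results lost their call in exonic crosslinks alone, 7 in the test against a fold of 1.5 and 5 with each position counted once (Hnrnpa2b1 at 0.13, Col1a2 at 0.54, Flna at 0.37, Taco1 at -1.12 and the Srsf3 balance at -1.003). Pfkp lost it in intronic crosslinks alone. Some changed sign. Srsf3 was at -0.032 in intronic crosslinks alone, Srsf7 at -0.32 and Thbs1 at -0.20 in exonic ones, Thbs1 at -0.054 with each position counted once, Cdk8 at 2.59 in exonic ones and Gm20388 at -1.09 in crosslinks of no other gene. With exons of coding transcripts alone the balance was 1.797 for Rps6, 3.86 for Srsf3, 1.097 for Clcf1 and 1.61 for Mtmr2. Of these values only those of Srsf3 and Mtmr2 passed.

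The limits are the depth of IgG libraries 3 and 4, where low genes often held 0 crosslinks, the shared lane of each antibody, and counts for which the handling of duplicates is not stated. A crosslink inside overlapping genes counted for each, and intron number, length and position along a gene are tied to each other in the annotation.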
